A study of Mus musculus with 2 samples.

Results

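The granzymes, perforin and other cytotoxic effectors were followed as 9 genes, Gzma, Gzmb, Gzmc, Gzmk, Gzmm, Prf1, Fasl, Nkg7 and Ctsw, out of 32228 genes counted. The genes were taken by name. Their transcripts were counted in CD45+ cells sorted from the colonic lamina propria of mice with dextran sulfate sodium (DSS) colitis. One library came from C57BL/6 WT mice and one from C57BL/6 Ring1AKO mice, which lack Ring1a, a component of Polycomb repressive complex 1, in the whole body. All mice were 8 to 10 weeks old by the labels and all received DSS, so neither library shows the untreated colon. Each library pooled the cells of 5 mice, so no spread between animals could be measured and no p-value is given. Every interval below is a 95% interval that covers counting error only.

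Cytotoxic lymphocytes kill through granules. Perforin opens the membrane of the target cell, and granzymes, a family of serine proteases, enter and cleave proteins inside it. Fas ligand acts by another route, by binding the death receptor Fas. In the gut these programmes belong to CD8 T cells, natural killer (NK) cells, group 1 innate lymphoid cells (ILC1) and intraepithelial-type T cells, including γδ T cells. Some granzymes are also made by regulatory T (Treg) cells and by mast cells.

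A total of 6005 barcodes labelled WT and 7918 labelled Ring1AKO were kept as cells, with medians of 6354 and 5035 unique molecular identifiers (UMIs). The libraries held 74414511 and 81862096 UMIs over all barcodes, and 11 barcodes occurred among the kept cells of both. Cells were placed in classes by UMIs of marker genes, none of them among the 9 effectors. The γδ gate did use other genes of cytotoxic cells (Ccl5, Klrd1, Cd160, Cd7, Fcer1g and Xcl1), weighed against genes of the interleukin-17 type. NK/ILC1 cells were gated as having fewer than 2 Cd3 UMIs. The 6 classes were CD8 T cells (386 WT and 390 Ring1AKO cells), CD7 innate-like lymphocytes (249 and 295), cytotoxic γδ T cells (83 and 143), NK/ILC1 cells (112 and 75), Treg cells (204 and 215) and other CD4 T cells (441 and 355). They held 24.6% of the WT and 18.6% of the Ring1AKO cells. Markers that did not gate the class itself ranked between 1 and 4 among 8 classes in the class they stand for. Ctla4 was at 2934 and 2895 CPM in Treg cells and Tbx21 at 243 and 183 CPM in NK/ILC1 cells, the highest of 8 classes in each library, where CPM is a gene's UMIs divided by all UMIs of the class and scaled to 1000000. The γδ constant gene Trgc1 was at 328 and 501 CPM in cytotoxic γδ T cells, also the highest. The 8 classes are the 6 with B cells and mast cells or basophils, without the γδ T cells of the interleukin-17 type. Another constant gene, Trgc2, was at 178 and 215 CPM in cytotoxic γδ T cells, close to CD7 innate-like cells with Cd3 (below). Markers of the CD7 innate-like class were less particular to it, with Cd160 ranking 2 and Cd244a 4 in each library. The CD7 innate-like class was mostly T cells, since 213 of 249 and 255 of 295 cells carried at least 2 Cd3 UMIs. Its cells with Cd3 had Trbc2 at 1070 and 1364 CPM beside Trgc2 at 158 and 226 CPM. Ring1, the gene targeted in the knockout, was found at 13.4 CPM (12.5 to 14.3) in WT and at 11.8 CPM (11.02 to 12.7) in Ring1AKO. The sources used here do not say which exons are deleted, so these 3′ tags cannot check the labels, and WT and Ring1AKO below mean the libraries so labelled. Cell-free RNA, estimated from the plasma-cell transcript Igha, made up 2.81% to 3.19% of class UMIs in WT and 3.47% to 4.42% in Ring1AKO. With the cell-free profile subtracted, all 42 ratios between the libraries described below stayed within their intervals.

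The granzymes lie at several places in the genome (GRCm38, GENCODE vM21). Gzma (chr13:113093825-113100981) and Gzmk (chr13:113171608-113225908), both on the minus strand, are neighbours 70.6 kb apart. Gzmb (chr14:56258838-56262260) and Gzmc (chr14:56231441-56234656), also on the minus strand, sit 24.2 kb apart in a cluster of 15 serine protease genes that holds 7 granzymes and 7 mast cell proteases. Gzmm (chr10:79689020-79695261) and Prf1 (chr10:61297833-61304680) are on the plus strand, as is Nkg7 (chr7:43437073-43438249). Fasl (chr1:161780689-161788495) and Ctsw (chr19:5465043-5468507) are on the minus strand. All 9 are annotated as protein-coding. Gzmk overlaps Esm1 and Ctsw overlaps Fibp on the opposite strand, and the strand setting of the counting is not given in the sources used here. No stretch of 90 bases within the last 500 bases of the Gzma, Gzmb, Gzmc, Gzmk or Gzmm transcripts occurred in another granzyme transcript, so 3′ reads of this length would tell them apart.

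The promoters of Gzma, Gzmb and Gzmk are shown because these 3 granzymes led in different classes in WT. They run from 250 bases before to 50 bases after the start of the gene (RefSeq, GRCm38.p6, printed 5′ to 3′ on the gene's own strand), at chr13:113100932-113101231, chr14:56262285-56262584 and chr13:113180916-113181215. The RefSeq start of Gzmk lies inside the GENCODE gene, which has a transcript that starts further upstream. That of Gzmb lies upstream of the GENCODE gene, and so does the whole printed Gzmb window. Positions below are counted from the RefSeq start. Capitals mark 4 motifs searched on both strands, RUNX (TGTGGT), T-box (GGTGTGA), AP-1 (TGANTCA) and STAT (TTCNNNGAA).
Gzma: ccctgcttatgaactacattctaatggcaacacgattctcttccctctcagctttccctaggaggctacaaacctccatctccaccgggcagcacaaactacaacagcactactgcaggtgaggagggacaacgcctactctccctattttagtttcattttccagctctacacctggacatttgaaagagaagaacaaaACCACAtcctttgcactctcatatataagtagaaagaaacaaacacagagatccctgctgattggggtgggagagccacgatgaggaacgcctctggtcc
Gzmb: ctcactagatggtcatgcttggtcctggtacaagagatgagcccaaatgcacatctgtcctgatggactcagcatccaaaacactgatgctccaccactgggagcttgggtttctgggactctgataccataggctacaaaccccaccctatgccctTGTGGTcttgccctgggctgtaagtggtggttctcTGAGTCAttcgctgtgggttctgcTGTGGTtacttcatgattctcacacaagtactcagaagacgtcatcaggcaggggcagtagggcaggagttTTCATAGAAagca
Gzmk: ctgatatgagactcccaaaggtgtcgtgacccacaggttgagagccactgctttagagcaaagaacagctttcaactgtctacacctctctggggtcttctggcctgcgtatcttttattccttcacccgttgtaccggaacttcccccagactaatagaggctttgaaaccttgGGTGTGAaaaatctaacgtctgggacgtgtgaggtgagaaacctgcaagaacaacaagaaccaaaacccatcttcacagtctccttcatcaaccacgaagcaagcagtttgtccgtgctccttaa
Gzma held the RUNX letters at position -50 from the start. Gzmb held them at -93 and -34, with the AP-1 letters between them at -58 and the STAT letters at 38. Gzmk held neither RUNX nor AP-1 letters but the T-box letters at -75. No marked motifs overlapped. Among 32851 promoters of this length, 16.8% held the RUNX, 3.98% the T-box, 7.81% the AP-1 and 8.30% the STAT letters. Of the 9 promoters listed for 8 of the effector genes, 6 held RUNX, 3 T-box, 1 AP-1 and 3 STAT letters. A match of letters does not show binding.

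**Figure D1:**
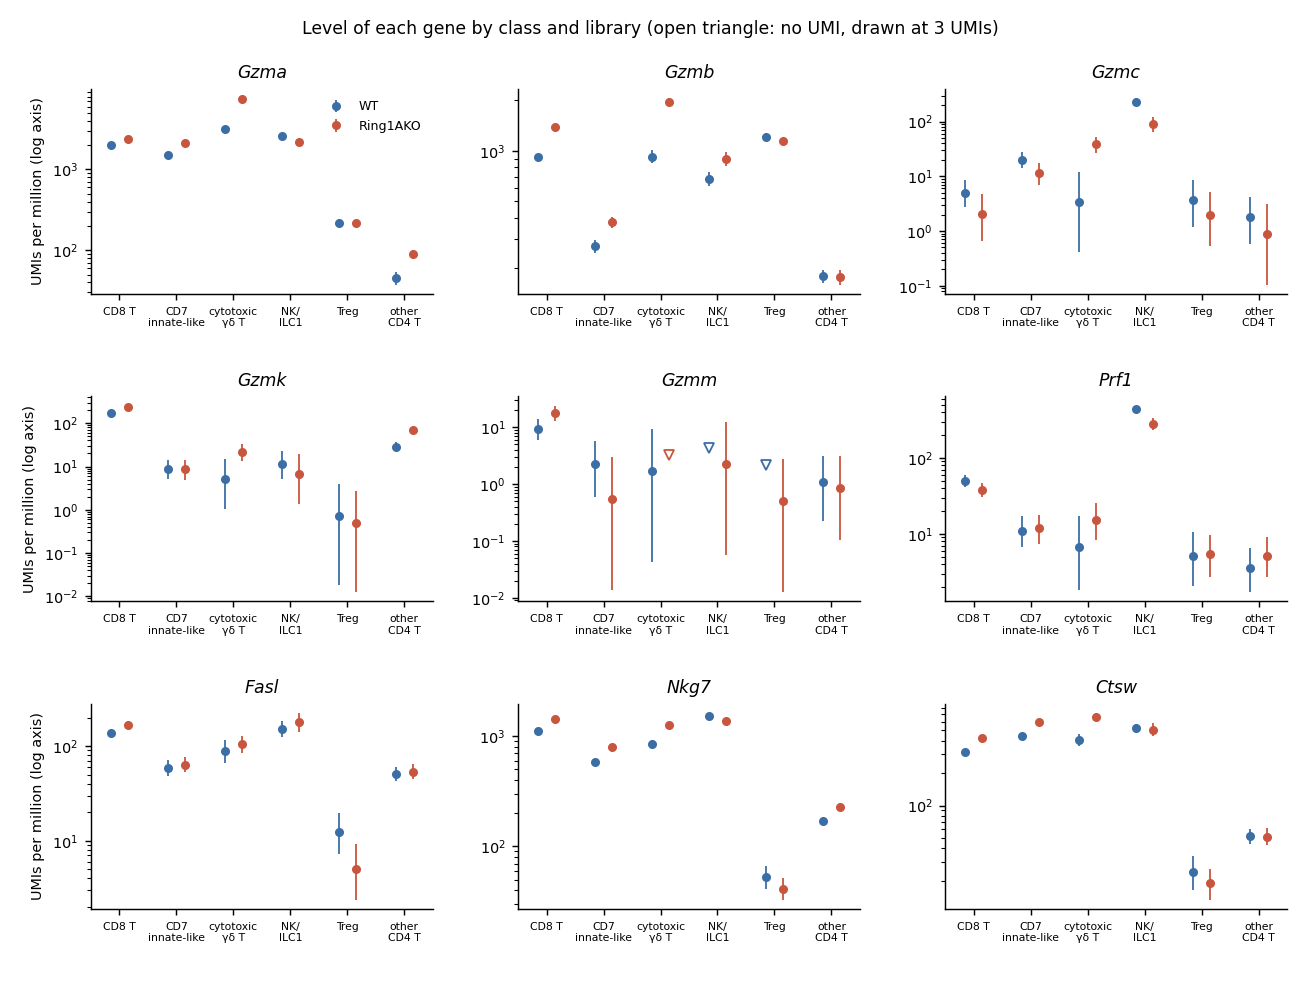
Level of each of the 9 genes (vertical log axis, CPM) in the 6 classes of the WT (blue) and Ring1AKO (red) libraries, with 95% counting intervals as bars and open triangles at the level of 3 UMIs where no UMI was found. Gzma is lowest in Treg and other CD4 T cells, Gzmb is higher in Treg than in CD8 T cells in WT and lower in Ring1AKO, Gzmk is highest in CD8 T cells, and Prf1 and Gzmc are highest in NK/ILC1 cells among the 6 classes.

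Gzma, which encodes a tryptase that cleaves after basic residues, had higher levels in the innate-like and cytotoxic classes than in Treg and other CD4 T cells. Of the 6 classes it was highest in cytotoxic γδ T cells, at 3202 CPM (3060 to 3350) in WT and 7440 CPM (7264 to 7619) in Ring1AKO. NK/ILC1 cells followed in WT at 2560 CPM, then CD8 T cells at 2013 and CD7 innate-like cells at 1527. In Ring1AKO these 3 classes lay close together, at 2212, 2389 and 2114 CPM, with overlapping intervals between CD8 T and NK/ILC1 and between NK/ILC1 and CD7 innate-like cells. Treg cells had 215 and 217 CPM and other CD4 T cells 45.0 and 88.6 CPM. B cells, which should lack the gene, had 10.1 and 10.5 CPM, and barcodes with fewer than 100 UMIs, read as cell-free RNA, had 193 and 353 CPM. The lead of γδ T cells over the next class was 0.32 on the log2 scale (0.23 to 0.42) in WT and 1.64 (1.59 to 1.69) in Ring1AKO. The WT lead rested on single cells. Of 83 WT γδ T cells, 13 had a Gzma UMI, and 1 cell carried 459 UMIs, 24.3% of the total. Without the top cell of each class the WT lead was 0.06.

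In the CD7 innate-like class few cells made most of the Gzma, and those that made it made much. The 25 WT cells of this class with the most Gzma held 99.6% of its UMIs, as did the top 30 Ring1AKO cells. After each cell was thinned to 2000 UMIs, which makes cells of different depth comparable, Gzma was found in 10.1% (6.63 to 14.5) of WT and 10.5% (7.16 to 14.6) of Ring1AKO cells of this class, and in 14.5% and 14.6% without thinning. The median among the thinned cells with Gzma was 29 and 28.5 UMIs. CD8 T cells showed Gzma more often, in 30.7% (26.2 to 35.6) and 38.1% (33.2 to 43.1) of thinned cells, with medians of only 9 and 8 UMIs. NK/ILC1 cells had it in 38.2% (29.1 to 47.9) and 33.3% (22.9 to 45.2), with medians of 11 and 15. In other CD4 T cells the medians were 1 UMI and the shares 5.01% and 5.37%. Of thinned Treg cells, 188 of 204 in WT and 199 of 214 in Ring1AKO had no Gzma UMI. In the CD7 innate-like class it was 223 of 248 and 257 of 287 cells. By share of cells the CD7 innate-like class was thus close to Treg cells, and its higher level came from few cells. B cells gave 0.998% and 2.01%. Without thinning the shares were 35.8% and 45.6% in CD8 T cells, 43.8% and 38.7% in NK/ILC1 cells, 9.30% and 8.73% in other CD4 T cells and 1.76% and 3.94% in B cells. The median depth was 5209 to 6337 UMIs in the 6 classes and 3984.5 and 4126 UMIs in B cells.

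**Figure D2:**
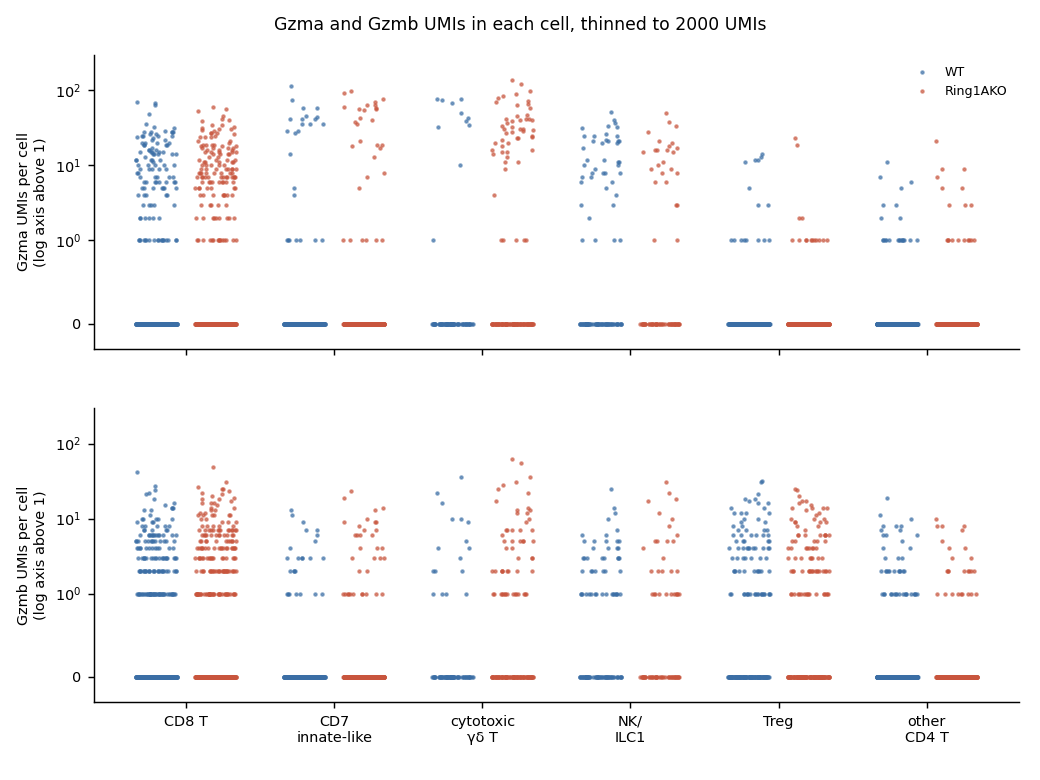
UMIs of Gzma (top) and Gzmb (bottom) in each cell of the 6 classes after thinning to 2000 UMIs (vertical axis, logarithmic above 1), with 1 point per cell, blue for WT and red for Ring1AKO, spread sideways to show all points. Most CD7 innate-like and γδ T cells sit at 0 for Gzma and the others carry up to 114 and 138 UMIs, while CD8 T and Treg cells with Gzmb have a median of 3 or 4 UMIs.

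Gzmb, which encodes the aspartate-cleaving granzyme that activates caspases, was distributed differently, with Treg cells among the highest of the 6 classes. In WT the order was Treg cells at 1216 CPM (1158 to 1275), cytotoxic γδ T cells at 925, CD8 T cells at 921, NK/ILC1 cells at 678, CD7 innate-like cells at 270 and other CD4 T cells at 179 CPM. The γδ and CD8 T levels had overlapping intervals, and all other neighbours were apart. In Ring1AKO cytotoxic γδ T cells led at 1966 CPM (1876 to 2059), followed by CD8 T cells at 1385, Treg cells at 1152, NK/ILC1 cells at 894, CD7 innate-like cells at 374 and other CD4 T cells at 176 CPM. B cells had 5.04 and 15.2 CPM. The share of thinned Treg cells with Gzmb was 41.2% (34.4 to 48.3) in WT and 40.7% (34.0 to 47.6) in Ring1AKO, and overlapped in its intervals with the 42.7% (37.7 to 47.8) and 47.7% (42.6 to 52.8) of CD8 T cells. Without thinning the shares were 49.5% and 51.2% in Treg cells and 54.9% in CD8 T cells of each library. In B cells the thinned shares were 0.333% and 1.53%. In WT γδ T cells 193 of 545 Gzmb UMIs (35.4%) lay in 1 cell, the largest such share for Gzmb among the 6 classes of each library.

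Gzmk, a tryptase found in memory-type T cells, marked CD8 T cells. It stood at 170 CPM (154 to 187) in WT and 233 CPM (214 to 253) in Ring1AKO, and other CD4 T cells came next at 28.95 and 70.04 CPM. The other 4 classes had no more than 20 UMIs each, or 21.9 CPM at most. CD8 T cells held 66.8% of all WT and 59.1% of all Ring1AKO UMIs of Gzmk, and the lead over other CD4 T cells was 2.54 (2.21 to 2.91) and 1.73 (1.481 to 1.995) on the log2 scale. Treg cells had 1 UMI in each library. In thinned CD8 T cells Gzmk was found in 20.6% (16.64 to 24.97) and 30.3% (25.8 to 35.2), with a median of 1 UMI, and without thinning in 44.04% and 48.5%. In B cells it was found in 0 of 902 thinned WT cells, which allows a share of up to 0.333% if 3 cells are taken as the limit (0.408% by the exact interval), and in 2 of 2742 Ring1AKO cells. Gzmm, whose product prefers methionine, was rare and also highest in CD8 T cells, at 9.35 CPM (24 UMIs) and 17.7 CPM (44 UMIs), against no more than 4 UMIs in any of the other classes.

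Gzmc, a granzyme of the chromosome 14 cluster, was highest in NK/ILC1 cells among the 6 classes. These had 230 CPM (158 UMIs) in WT and 91.4 CPM (41 UMIs) in Ring1AKO, which was 42.9% of all WT and 9.83% of all Ring1AKO UMIs of Gzmc. Mast cells and basophils, outside the 6 classes, held 5.44% and 41.7% of them and had higher levels in Ring1AKO than NK/ILC1 cells (110.6 CPM in WT and 522 CPM in Ring1AKO). ILC3 had 49 and 27 UMIs (93.2 and 50.1 CPM), and 28 of the 49 in WT lay in 1 cell. The next of the 6 classes were CD7 innate-like cells in WT at 19.95 CPM and cytotoxic γδ T cells in Ring1AKO at 38.4 CPM. Of the 5 other granzymes of that cluster, Gzmf had 10 and 10 UMIs in NK/ILC1 cells, and Gzmd, Gzme, Gzmg and Gzmn had 0 or 1 UMI in each of the 6 classes, as had Gzmf in the other 5.

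Prf1, which encodes perforin, was also highest in NK/ILC1 cells among the 6 classes. It stood at 433 CPM (385 to 485) in WT and 279 CPM (232 to 332) in Ring1AKO. These cells held 39.8% of all WT and 23.8% of all Ring1AKO UMIs of Prf1. CD8 T cells had 50.2 and 37.9 CPM, so the lead was 3.10 (2.80 to 3.42) and 2.88 (2.48 to 3.28) on the log2 scale. Outside the 6 classes, mast cells and basophils had 122 CPM (22 UMIs) in WT and 0 UMIs in Ring1AKO, and ILC2 61.1 and 20.6 CPM. Cytotoxic γδ T cells, first for Gzma, had 4 and 14 UMIs of Prf1 (6.79 and 15.4 CPM), and CD7 innate-like cells 20 and 22 (11.1 and 11.9 CPM). Perforin was found in 45.5% (35.9 to 55.2) and 33.3% (22.9 to 45.2) of thinned NK/ILC1 cells, in 10.2% and 7.51% of CD8 T cells, and in 3.61% and 3.52% of γδ T cells, beside 0.444% and 0.766% of B cells. Without thinning it was found in 64.3% and 50.7% of NK/ILC1 cells.

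Fasl, the ligand of Fas, was about equal in NK/ILC1 cells (153 and 178 CPM) and CD8 T cells (138 and 167 CPM), and the interval of the gap held 0 in each library (-0.18 to 0.46 in WT and -0.27 to 0.44 in Ring1AKO). It was lowest in Treg cells, with 17 and 10 UMIs. Nkg7, which encodes a granule membrane protein needed for degranulation, was found in more cells of each of the 4 cytotoxic and innate-like classes than any other of the 9. It was found in 74.7% and 82.1% of thinned CD8 T cells, 61.7% and 73.9% of CD7 innate-like cells, 77.1% and 79.6% of γδ T cells and 80.9% and 77.3% of NK/ILC1 cells, against 4.90% and 4.67% of Treg cells. Without thinning it was found in 80.3% to 95.5% of cells of these 4 classes. Its level was 1520 and 1362 CPM in NK/ILC1 cells and 52.3 and 41.3 CPM in Treg cells. Ctsw, which encodes a cathepsin of cytotoxic cells, differed less between the cytotoxic classes. It ran from 314 CPM in CD8 T cells to 519 CPM in NK/ILC1 cells in WT, and from 423 CPM in CD8 T cells to 662 CPM in γδ T cells in Ring1AKO. Treg cells had 24.0 and 18.9 CPM. In Treg cells, among the highest of the 6 classes for Gzmb, the levels of Nkg7, Ctsw and Fasl were below the other 5, and Prf1 overlapped with the lowest.

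The NK/ILC1 class held cells with and without the NK-cell transcription factor Eomes, and the effectors divided between them. This split was chosen after the levels had been seen, and Eomes was among the genes that gated the class. Cells with an Eomes UMI numbered 42 in WT and 25 in Ring1AKO, and cells without one 70 and 50, and a cell without a UMI may still express the gene. Gzma was at 5001 CPM (4741 to 5272) and 5073 CPM (4723 to 5442) with Eomes, and at 920 and 725 CPM without it. Prf1 was at 745 (647 to 854) and 509 CPM (402 to 635) with Eomes, and at 223 and 159 CPM without it. Gzmb was likewise higher with Eomes, at 1117 and 1552 CPM against 384 and 552 CPM. Gzmc and Ctsw went the other way. Gzmc was at 90.4 (58.5 to 133) and 32.6 CPM (10.6 to 76.1) with Eomes and at 323 (270 to 383) and 122 CPM (85.4 to 169) without it. The WT cell with the most Gzmc (below) had more of its UMIs than all WT cells with Eomes together (25 UMIs). It thus lay among those without Eomes (133 UMIs), and the counting interval does not cover this. Ctsw was at 380 and 372 CPM with Eomes and 612 and 576 CPM without it. Fasl had overlapping intervals, at 159 and 196 CPM with Eomes and 148 and 169 CPM without it. The order with and without Eomes was the same in WT and Ring1AKO for all 6 of these genes.

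**Figure D3:**
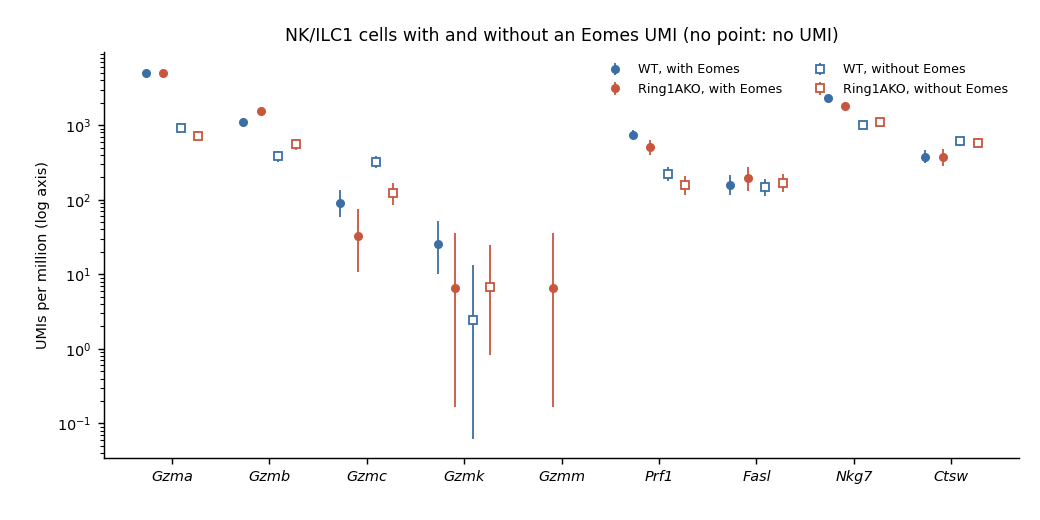
Level of the 9 genes (vertical log axis, CPM) in NK/ILC1 cells with an Eomes UMI (filled circles) and without one (open squares), blue for WT and red for Ring1AKO, with 95% counting intervals as bars and no point where no UMI was found. Gzma, Gzmb, Prf1 and Nkg7 are higher in cells with Eomes in each library, and Gzmc and Ctsw in cells without it.

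The CD7 innate-like class also had parts. Its cells with Cd3 carried Gzma at 1809 and 2410 CPM and Gzmb at 321 and 427 CPM. The 36 WT and 40 Ring1AKO cells without Cd3 had Gzma at 405 and 320 CPM and Gzmb at 66.1 and 53.3 CPM. Without Cd3 means fewer than 2 Cd3 UMIs, so T cells may be among them. In these cells Trbc1 was at 129 and 503 CPM and Trbc2 at 41.3 and 198 CPM. Prf1 was at 6.94 and 9.44 CPM with Cd3 and at 27.5 and 26.7 CPM without it, on no more than 15 UMIs each.

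Gzma and Gzmb were found together in cells of the cytotoxic classes and rarely in the same Treg cell. Both were found in 25.5% (21.2 to 30.2) of WT and 31.1% (26.50 to 35.97) of Ring1AKO CD8 T cells after thinning, in 30.0% (21.6 to 39.5) and 25.3% (16.0 to 36.7) of NK/ILC1 cells, and in 10.8% (5.08 to 19.6) and 33.1% (25.4 to 41.5) of γδ T cells. Treg cells had Gzmb without Gzma in 40.2% (33.4 to 47.3) and 38.8% (32.2 to 45.7), and both in only 2 of 204 and 4 of 214 cells. Gzma itself was rare in Treg cells, with 14 and 11 cells that had it without Gzmb. Whether Treg cells had both less often than the separate shares predict was not tested. Of the CD8 T cells with Gzmk, 41 of 79 in WT and 71 of 117 in Ring1AKO also had Gzma, and 21 and 24 had neither Gzma nor Gzmb. In other CD4 T cells 17 of 27 and 27 of 36 cells with Gzmk had neither. Over all cells of each class, with or without Gzmk, the share with neither was 52.1% and 45.3% in CD8 T cells. In other CD4 T cells it was 85.9% and 89.0%, so Gzma and Gzmb were rarer in that class as a whole. None of the 5 granzymes was found in 45.8% and 38.9% of CD8 T cells, 85.1% and 84.0% of CD7 innate-like cells, 77.1% and 57.0% of γδ T cells, 40.9% and 48.0% of NK/ILC1 cells and 81.3% and 81.4% of other CD4 T cells.

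**Figure D4:**
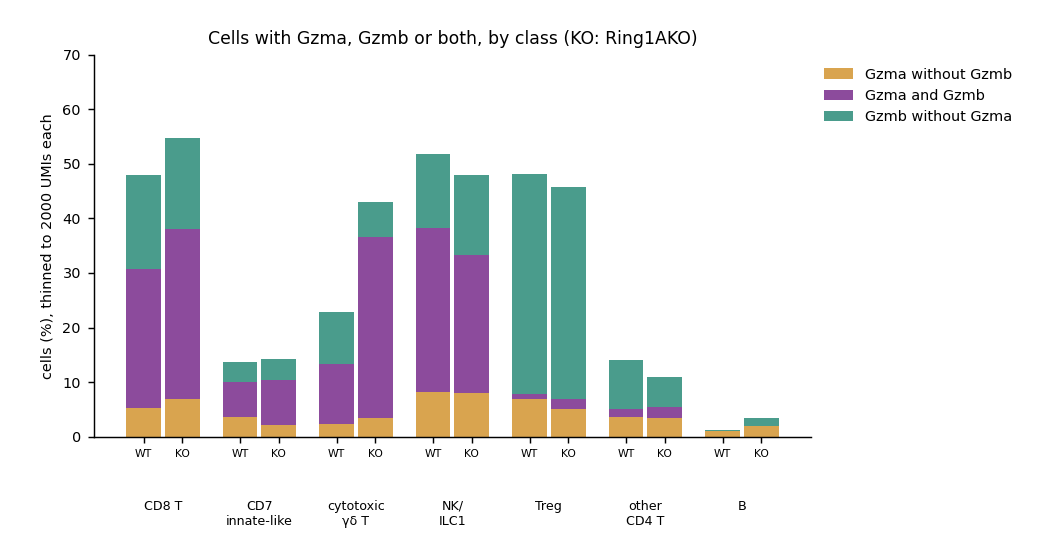
Share of cells (vertical axis, percent of cells thinned to 2000 UMIs) with Gzma alone of the pair, with Gzma and Gzmb, and with Gzmb alone, stacked for each class and library (KO is Ring1AKO), with B cells as the background. Treg bars hold few cells with both genes, and the γδ bar with both genes is 10.8% in WT and 33.1% in Ring1AKO.

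Between the libraries, Gzmb had a larger ratio in cytotoxic γδ T cells, as gated, than in the other 5 classes. The ratio of Gzma was also largest there, but its interval overlapped with that of other CD4 T cells (0.65 to 1.31). In γδ T cells Gzma was 2.32-fold higher in Ring1AKO (log2 1.22, 1.14 to 1.29) and Gzmb 2.12-fold higher (log2 1.09, 0.95 to 1.23). Gzmc had 2 and 35 UMIs (log2 2.96, 1.54 to 6.60) and Gzmk 3 and 20 (log2 1.76, 0.35 to 4.50), and 18 of the 35 Gzmc UMIs lay in 1 cell. Nkg7 (log2 0.56, 0.41 to 0.71) and Ctsw (log2 0.71, 0.49 to 0.94) were higher too, and the interval of Fasl held 0. Of the 7 members with at least 20 UMIs, 4 had a log2 ratio of 1 or more in size, against 8.31% of the 6513 genes with 20 UMIs in these cells. Their median was 1.09, beside -0.06 over all those genes. Gzmc and Gzmk reached 20 UMIs through Ring1AKO, and Prf1, with 4 and 14 UMIs, did not reach it, so nothing is read from this count or median. The intervals of 6 of the 7 lay above 0, those of Gzmc and Gzmk among them, so nothing is read from that count either. Over the genes, 8.00% had an interval above 0 and 11.9% one below. Genes with many UMIs have narrower intervals, and these shares are over genes of all levels. More γδ T cells carried Gzma, 36.6% (28.7 to 45.1) of thinned Ring1AKO cells against 13.3% (6.81 to 22.5) of WT cells (40.6% and 15.7% without thinning), while the median among the thinned cells with Gzma was 29.5 UMIs in Ring1AKO and 43 in WT. Other transcripts differed in the same cells. Il22 was at 5.09 CPM (3 UMIs) in WT and 122 CPM (111 UMIs) in Ring1AKO. Without the cell with the most UMIs of the gene in each library, the log2 ratio was 1.48 for Gzma and 1.48 for Gzmb. With the 24 WT and 50 Ring1AKO γδ T cells of the interleukin-17 type added, the log2 ratio of Gzma was 0.60, below the 0.97 of other CD4 T cells, that of Gzmb 0.75 and the median over the members 0.63. In WT, 1 cell of the interleukin-17 type alone held 887 Gzma UMIs.

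In CD8 T cells the ratios of Gzma and Gzmb were smaller than in γδ T cells. Of 8 members with 20 UMIs, 7 were higher in Ring1AKO with an interval above 0, as were 8.00% of 8955 genes, while 21.1% had an interval below 0. Gzmb was 1.504-fold higher (log2 0.59, 0.51 to 0.67), Gzmk 1.37-fold (log2 0.46, 0.28 to 0.64), Ctsw 1.35-fold (log2 0.43, 0.29 to 0.56), Nkg7 1.27-fold (log2 0.35, 0.28 to 0.42), Fasl 1.21-fold (log2 0.28, 0.07 to 0.48) and Gzma 1.19-fold (log2 0.25, 0.19 to 0.30, and 0.15 with the mean over cells). Gzmm had 24 and 44 UMIs (log2 0.90, 0.18 to 1.71) and Prf1 was lower (log2 -0.40, -0.81 to -0.01). No member reached a log2 ratio of 1, which 6.14% of the genes did, and the median was 0.39 beside -0.13 for all genes. In CD7 innate-like cells Gzma (log2 0.47), Gzmb (0.47), Nkg7 (0.44) and Ctsw (0.43) were each 1.35-fold to 1.39-fold higher with intervals above 0, as were 9.55% of genes (17.1% were below 0), and the intervals of Gzmc, Gzmk, Prf1 and Fasl held 0. None reached the limit, as 7.03% of 8725 genes did, and the median was 0.27 beside -0.06. The Gzma ratio of CD7 innate-like cells rests on few cells, which the counting interval does not take into account. After thinning, 223 of 248 WT and 257 of 287 Ring1AKO cells of this class had no Gzma UMI, so the shares with Gzma were close.

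In NK/ILC1 cells 4 of 7 members had an interval below 0 and 1 an interval above 0, beside 11.3% and 7.05% of all genes. Gzmc was 0.406-fold in Ring1AKO (log2 -1.30, -1.86 to -0.82) and Prf1 0.647-fold (log2 -0.63, -0.95 to -0.33), with Gzma (log2 -0.21, -0.32 to -0.10) and Nkg7 (log2 -0.16, -0.30 to -0.01) also lower and Gzmb higher (log2 0.40, 0.20 to 0.59). Of the WT Gzmc UMIs, 40 lay in 1 cell, and without the top cell of each library the log2 ratio was -1.15, and with stricter markers -0.80. Gzmc alone of the 7 members with 20 UMIs passed the limit, as 8.19% of 5690 genes did, and the median was -0.16 beside -0.06, within the middle 50% of all genes (-0.40 to 0.27). Cells with an Eomes UMI made up 42 of 112 and 25 of 75 cells, and the part of this share in the ratios was not tested. Gzmc and Prf1 were lower in Ring1AKO in the cells with and in those without Eomes. The intervals of the levels overlapped for Prf1 without Eomes and for Gzmc with it, the latter on 25 and 5 UMIs. Gzma was lower only without Eomes, at 920 and 725 CPM, against 5001 and 5073 CPM with it. Nkg7 was lower only with Eomes, at 2292.5 and 1832 CPM, against 1000 and 1118 CPM without it. Gzmb was higher in Ring1AKO with and without Eomes.

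In Treg cells Gzmb (log2 -0.08, -0.17 to 0.01) and Gzma (log2 0.01, -0.20 to 0.23) had intervals that held 0. In Ring1AKO 1 Treg cell held 37.2% of the Gzma UMIs, and without the top cell of each library the log2 ratio of Gzma was -0.35, and -0.54 with the mean over cells. Of 5 members with 20 UMIs, Fasl passed the limit, on 17 and 10 UMIs (log2 -1.26, -2.60 to -0.10), beside 10.8% of 8546 genes (intervals lay above 0 for 15.9% and below for 21.6% of the genes), and the median was -0.34 beside -0.08. The ILC2-type markers in Treg cells, Gata3 among them, summed to 745 CPM in WT and 393 CPM in Ring1AKO, and their part in these values was not tested. In other CD4 T cells Gzmk was 2.40-fold higher in Ring1AKO (log2 1.27, 0.88 to 1.68), Gzma 1.96-fold higher (log2 0.97, 0.65 to 1.31) and Nkg7 1.34-fold higher (log2 0.42, 0.24 to 0.60), with intervals above 0 as in 10.8% of genes (19.6% lay below 0), while the interval of Gzmb held 0 (log2 -0.02, -0.21 to 0.17). Of 7 members with 20 UMIs, Gzmk alone passed the limit, as 6.00% of 9124 genes did, and the median was 0.42 beside -0.06. The Gzma ratio of other CD4 T cells rests on few cells. After thinning, 417 of 439 WT and 335 of 354 Ring1AKO cells had no Gzma UMI. The most in 1 thinned cell was 11 UMIs in WT and 21 in Ring1AKO. Other CD4 T cells also differed in type 17 transcripts. Il22 was at 815 CPM in WT and 156 CPM in Ring1AKO and Il17a at 582 and 237 CPM.

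**Figure D5:**
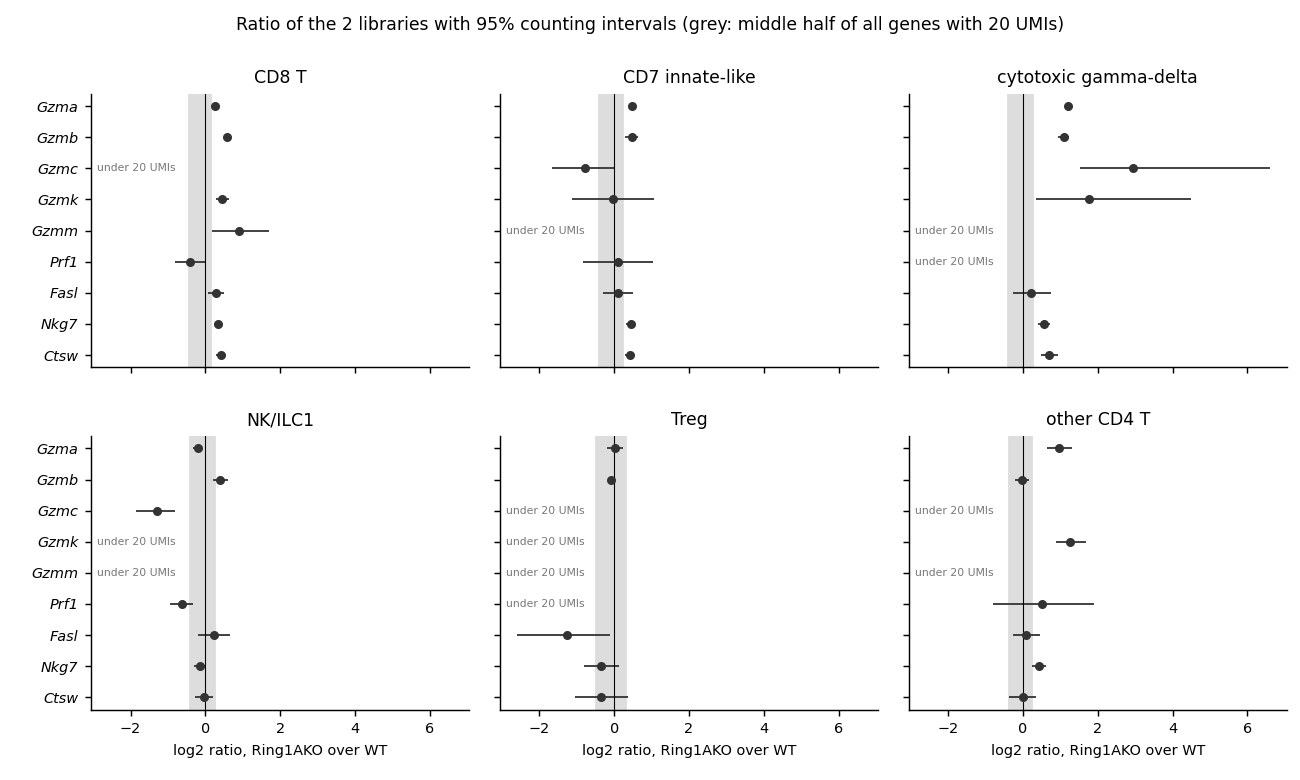
Log2 ratio of Ring1AKO over WT (horizontal axis) for the 9 genes in each of the 6 classes, as points with 95% counting intervals, with the middle 50% of all genes with at least 20 UMIs shaded grey and genes under 20 UMIs marked. Points lie right of 0 for most genes in CD8 T, CD7 innate-like and γδ T cells, and left of 0 for Gzmc and Prf1 in NK/ILC1 cells.

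Of 30 further genes of the cytotoxic pathway, 22 to 26 reached 20 UMIs in a class. None of 24 reached a log2 ratio of 1 in size in CD8 T cells, as 6.14% of all genes did. In γδ T cells 2 of 24 were past it upwards and 2 downwards (8.31% of all genes in either direction). In NK/ILC1 cells 1 of 26 was past it upwards and 3 downwards (8.19%). Downwards only were 1 of 23 in CD7 innate-like cells (7.03%), 1 of 22 in Treg cells (10.8%) and 2 of 24 in other CD4 T cells (6.00%). Nothing is read from these counts. Ifng, which encodes interferon-γ, was past this limit in 4 of the classes, lower in Ring1AKO in each. In CD8 T cells it was higher in Ring1AKO, at 307 and 412.5 CPM (log2 0.42, 0.29 to 0.56), and Treg cells had 6 UMIs in each library. In cytotoxic γδ T cells it was at 472 CPM (278 UMIs) in WT and 55.9 CPM (51 UMIs) in Ring1AKO (log2 -3.05, -3.54 to -2.64). In NK/ILC1 cells it was at 1020 and 397 CPM (log2 -1.36), in other CD4 T cells at 299 and 134 CPM (log2 -1.16) and in CD7 innate-like cells at 90.3 and 40.0 CPM (log2 -1.17). The γδ T cells of Ring1AKO had more Gzma and Gzmb and less Ifng. The alternatives of processing covered the ratios of the members only, so the Ifng ratio has its counting interval alone. Ccl4, a chemokine released by activated cytotoxic cells, was higher in γδ T cells (214 and 611 CPM, log2 1.51) and lower in NK/ILC1 cells (2581 and 1282 CPM, log2 -1.01). Eomes was lower in γδ T cells (26 and 11 UMIs, log2 -1.80) and in other CD4 T cells (20 and 7 UMIs, log2 -1.12, with an interval that held 0). Rab27a, needed for granule release, was at 4 and 18 UMIs in γδ T cells (log2 1.30, with an interval that held 0). In NK/ILC1 cells Serpinb9b, a serpin of the granzyme inhibitor family, was higher (10 and 18 UMIs, log2 1.41) and Tnfsf10, the death ligand TRAIL, lower (40 and 10 UMIs, log2 -1.28). Tnf was lower in Treg cells (39 and 20 UMIs, log2 -1.48).

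The patterns of the members over 29 profiles, each 1 class of 1 library with at least 20 cells, were compared by Pearson correlation of log2(CPM + 1). The profiles share libraries and cell-free RNA. Nkg7, Fasl and Ctsw went together most closely (r of 0.90, 0.91 and 0.90 for their pairs), and Gzma followed Nkg7 at 0.86 and Gzmb at 0.80. Gzmc and Gzmk had an r of 0.01. The search for the nearest patterns left out the members and all gate genes, Ccl5, Klrd1 and Xcl1 among them. It also left out immunoglobulin and T-cell-receptor variable genes. Among the 10960 genes compared, each with at least 100 UMIs, those nearest to Gzma were Baiap3 (0.85), Tiprl (0.84) and Fam53c (0.82). Nearest to Gzmb were Cst7 (0.89), Tinf2 (0.89) and Fundc2 (0.89), and nearest to Gzmk were Tdrp (0.89), Themis (0.85) and Gm45715 (0.84).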

How the data were processed

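Colonic lamina propria cells of DSS-treated mice were sorted as live CD45+ cells and sequenced with 10x Genomics 3′ chemistry, 1 library per genotype. The authors counted UMIs with Cell Ranger, and the matrices were deposited as raw counts per gene and barcode. The paper gives the build as mm10, the submitters' processing notes name mm39 and Cell Ranger 6.0.2, and the file headers name Cell Ranger 4. The build was not settled, so genes were matched by identifier. Coordinates and sequences come from GRCm38.

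Cells had at least 1000 UMIs, at least 500 genes and under 5% mitochondrial UMIs. T cells had at least 2 UMIs of Cd3d, Cd3e and Cd3g together, and cells with fewer are called cells without Cd3. Among the T cells, γδ T cells had Trdc, Treg cells Foxp3, CD8 T cells Cd8a or Cd8b1 and other CD4 T cells Cd4. Cells with Cd8a but no Cd8b1 became CD8 T cells only where the γδ and CD7 innate-like gates had not taken them. Cd8a was at 231.7 CPM in WT and 387.5 CPM in Ring1AKO in the CD7 innate-like cells with Cd3. NK/ILC1 cells had at least 2 UMIs of Ncr1, Klrb1c, Eomes, Klra8 and Klra4 together without Cd3, and CD7 innate-like cells Cd7 with Fcer1g or Tyrobp. Cells with markers of another lineage (3 or more UMIs) beside Cd3, or of several lineages, were left out as mixed, 27.4% and 27.5% of cells, and among them 169 WT and 325 Ring1AKO cells with Cd3 held 6.13% and 13.2% of Gzma UMIs. No doublet caller was run. A γδ gate gene, Cd163l1, was not used. Some marker values and an alternative that left out cells by marker are not reported here. UMIs were summed by class and library and given as CPM with exact Poisson intervals. Ratios used 1 added UMI, exact conditional intervals and genes with at least 20 UMIs, and shares used exact Clopper-Pearson intervals. Beside a count of 0, 3 counts were taken as the limit, slightly below the exact upper bound. On simulated CD8 T sums of 8962 genes, with every UMI drawn independently, 95.8% of intervals held the true ratio. The intervals assume the same, so this checks their computation only. It does not cover UMIs that lie together in few cells, as in these data. Python 3.11.15, numpy 2.4.6, scipy 1.17.1 and pandas 2.3.3 were used. No test between the libraries was made, since each group had 1. The 9 members, the 30 pathway genes and the gates were chosen with earlier results of these data known. Genes named are the members, pathway genes with a log2 ratio of 1 or more in size, and the 3 nearest patterns, beside markers and gate genes. The differences in Il22, Il17a and the ILC2-type markers, all gate genes, are named outside this rule.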

Additional observations from a re-analysis of the deposited data

Results flagged for a closer look

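Gzmc differed in opposite directions in a pair of classes, with log2 ratios of Ring1AKO over WT of 2.96 in cytotoxic γδ T cells (2 and 35 UMIs) and -1.30 in NK/ILC1 cells (158 and 41 UMIs). The difference between these ratios was not tested. The γδ ratio rests on few molecules, since the gene reached the limit of 20 UMIs through Ring1AKO and 18 of the 35 UMIs lay in 1 cell.

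Some cells outside the 6 classes had more of a granzyme than any of them. Gzmb was at 9776 CPM (9325 to 10242) in the 16 WT mast cells and basophils and at 7630 CPM (7336 to 7932) in the 36 Ring1AKO ones, where it was found in 87.5% (61.7 to 98.5) and 84.9% (68.1 to 94.9) of thinned cells. They held 18.4% and 16.6% of all Gzmb UMIs of their libraries. Gzmc was at 522 CPM (174 UMIs, 81 of them in 1 cell) in the Ring1AKO mast cells and basophils. The 24 WT γδ T cells of the interleukin-17 type had Gzma at 5041 CPM, of which 1 cell held 91.6%.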

How the results depend on the processing

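No paired analysis was possible because each group had 1 library. The median ratio over the members kept its direction in all 6 classes under all 10 alternatives. It also stayed between the median of the members' lower bounds and the median of their upper bounds. That range is not a counting interval of the median, for which none was computed. Nothing is read from the median in cytotoxic γδ T cells, where Gzmc and Gzmk reached the UMI limit through Ring1AKO. The log2 ratios of single members in a class moved past their counting interval in 22 of 414 alternative values, and none of those with an interval off 0 turned its direction. The lead of γδ T cells for Gzma in WT was 0.037 with the mean over cells, 0.46 without mitochondrial and ribosomal UMIs, 0.51 with all γδ T cells together and 0.056 without the cell with the most UMIs. In Ring1AKO it was 1.44 with the study's cell filter, 1.58 with 1 UMI of Cd3, 1.72 with stricter markers, 1.46 with the mean over cells, 1.56 without mitochondrial and ribosomal UMIs, 1.56 with CD8 T cells by Cd8b1 only, 1.21 with all γδ T cells together and 1.56 without the top cell. The lead of Treg cells for Gzmb in WT was 0.19 with the study's filter and 0.23 without mitochondrial and ribosomal UMIs. The lead of γδ T cells for Gzmb in Ring1AKO was 0.31 with the study's filter, 0.61 with stricter markers, 0.27 with the mean over cells, 0.18 with all γδ T cells together and 0.34 without the top cell. The alternatives on Cd8b1, on all γδ T cells and on the top cell were chosen after seeing the data. Shares of cells moved past their interval in 29 of 48 cases without thinning and in 18 of 48 at 1000 UMIs. Thinning only removes UMIs, so a cell can lose a gene by it but cannot gain one. Other causes were not tested. Depth limits Gzmm, Gzmc and Prf1 outside their leading classes.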
